A study of Homo sapiens with 2 samples.

Results

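The 9 genes described here encode AP-1 transcription factors: the FOS family (FOS, FOSB, FOSL1, FOSL2), the JUN family (JUN, JUNB, JUND) and their partners ATF3 and BATF3. They were chosen by name, with earlier results of these data known. Every Flag-ETV4 peak whose interval came within 20 kb of the RefSeq span of 1 of them was taken. This gave 43 of the 54389 peaks of the list. All 9 are among the 20033 protein-coding genes of the RefSeq table on GRCh38. The peaks came from 1 anti-Flag ChIP-seq library with 1 input library as its control. Both were made from A549, an established human non-small cell lung cancer line, in which endogenous ETV4 had been knocked down by shRNA (A549-shETV4) and Flag-tagged ETV4 was put back by plasmid transfection. The control is the input of such cells, so no library without Flag-ETV4 was compared. The labels and the methods name different suppliers of the Flag antibody. There was no replicate, so no value below has an SD and none was tested between conditions.

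AP-1 factors are basic leucine zipper proteins that bind DNA as dimers. FOS proteins need a JUN partner, JUN proteins also pair with each other, and ATF3 and BATF3 dimerise with JUN proteins. Several of these genes are immediate early genes, switched on within minutes by ERK and JNK signalling. ETV4 belongs to the PEA3 group of ETS factors, which bind a GGAA core and are themselves targets of ERK, and many RAS-responsive enhancers hold an ETS site next to an AP-1 site.

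Peaks covered the 5′ ends of 6 of the 7 AP-1 genes with an entry in the RefSeq promoter table (FOS, FOSB, FOSL2, JUN, JUNB and JUND). The promoter window of each of those 6 genes lay wholly inside a peak of 2 kb or more. Over protein-coding genes, 8319 of 22076 windows lay wholly inside a peak, 1485 of them in one that wide. Each window runs from 250 bases before the listed start to 50 bases after it. Those of FOS, FOSB, FOSL2, JUN and JUND are printed because they lie inside the peaks. Each is only a part of the peak over it, and none holds the summit. ATF3 has 2 windows in the table, neither in a peak, and FOSL1 and BATF3 have no entry. Each sequence is from RefSeq on GRCh38.p14, 5′ to 3′ on the strand of the gene. Capitals mark exact matches on either strand to the ETS core GGAA, which reads TTCC on the reverse strand, and to the longer ETS sites CAGGAAG, of the PEA3 type, or CCGGAAG, which contain that core. They also mark the AP-1 site TGACTCA, whose reverse complement reads TGAGTCA, the cyclic AMP response element TGACGTCA, its JUN-type variant TGACATCA and the CArG box bound by serum response factor.
FOS, chr14:75278578-75278877, plus strand: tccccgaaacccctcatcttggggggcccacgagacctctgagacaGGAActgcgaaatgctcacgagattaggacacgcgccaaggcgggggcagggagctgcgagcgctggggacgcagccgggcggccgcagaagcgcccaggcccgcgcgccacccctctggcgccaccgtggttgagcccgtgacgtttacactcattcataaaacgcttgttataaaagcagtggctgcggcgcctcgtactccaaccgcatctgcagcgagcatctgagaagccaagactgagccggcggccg
FOSB, chr19:45467746-45468045, plus strand: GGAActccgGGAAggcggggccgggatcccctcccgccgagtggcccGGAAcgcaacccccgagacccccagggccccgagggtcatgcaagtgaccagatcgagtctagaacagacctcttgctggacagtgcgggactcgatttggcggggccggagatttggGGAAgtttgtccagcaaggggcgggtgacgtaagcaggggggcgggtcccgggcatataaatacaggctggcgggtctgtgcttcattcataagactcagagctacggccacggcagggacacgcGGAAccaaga
FOSL2, chr2:28392608-28392907, plus strand: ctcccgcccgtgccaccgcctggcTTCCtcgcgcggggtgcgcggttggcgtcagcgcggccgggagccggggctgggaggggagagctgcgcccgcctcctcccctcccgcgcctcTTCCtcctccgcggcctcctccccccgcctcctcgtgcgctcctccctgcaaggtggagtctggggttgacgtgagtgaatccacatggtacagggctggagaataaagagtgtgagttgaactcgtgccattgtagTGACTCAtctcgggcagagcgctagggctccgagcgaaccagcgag
JUN, chr1:58783998-58784297, minus strand: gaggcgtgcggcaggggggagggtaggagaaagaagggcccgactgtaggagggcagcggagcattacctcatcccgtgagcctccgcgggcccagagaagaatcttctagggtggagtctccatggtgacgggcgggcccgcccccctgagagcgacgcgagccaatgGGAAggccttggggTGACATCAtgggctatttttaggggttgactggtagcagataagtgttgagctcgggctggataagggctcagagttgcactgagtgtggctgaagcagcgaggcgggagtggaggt
JUND, chr19:18281573-18281872, minus strand: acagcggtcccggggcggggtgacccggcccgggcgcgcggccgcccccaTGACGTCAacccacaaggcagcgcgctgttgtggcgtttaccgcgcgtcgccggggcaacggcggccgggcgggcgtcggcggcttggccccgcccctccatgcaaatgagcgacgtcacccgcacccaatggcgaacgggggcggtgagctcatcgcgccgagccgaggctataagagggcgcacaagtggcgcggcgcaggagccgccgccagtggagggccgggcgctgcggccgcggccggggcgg

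GGAA was found in 7 of the 8 AP-1 windows, with JUND the exception, but it was also found in 95.1% of the 22076 windows of protein-coding genes. CAGGAAG was found in 1 AP-1 window, that of JUNB, at bases −148 to −142 from the start, on the reverse strand, against 12.6% of all windows, and CCGGAAG in 0 of 8, against 12.8%. With 8 windows, neither count stands apart from its background. A site for AP-1 itself was found in the FOSL2 window, from 4 to 10 bases after the start (4.02% of all windows held TGACTCA). The JUN window held TGACATCA at bases −67 to −60, and the window of the first ATF3 start held it at −123 to −116 (2.12% of all windows). The JUND window held TGACGTCA at bases −200 to −193 (2.25% of all windows). No AP-1 window held a CArG box, which 1.25% of all windows did. A match is a string of letters, and its use by a factor was not measured here.

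The peaks fell into 3 classes by their distance from the gene. Of the 43 peaks, 11 lay within 1 kb of an end of their AP-1 gene, 6 lay inside the gene further than 1 kb from both ends, and 26 lay outside it, more than 1 kb and up to 20 kb away. A gene-end peak was found at 8 of 9 AP-1 genes, against a background of 62.1% of all protein-coding genes. All 8 had a fold enrichment over 10 at their strongest gene-end peak, against 45.2% of all protein-coding genes. ATF3 was the exception, where gene ends are the outer bounds of the gene and starts inside it are not counted. An outside peak was found at 7 of 9 genes, against 62.4% of all protein-coding genes, and in all 7 the strongest one had a fold over 10, against 43.6%. A peak further inside the gene was found at 4 of 9, against 37.2%. Among the genes with a strand, a peak lay within 1 kb of the 5′ end in 6 of 7, against 61.3%.

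**Figure D1:**
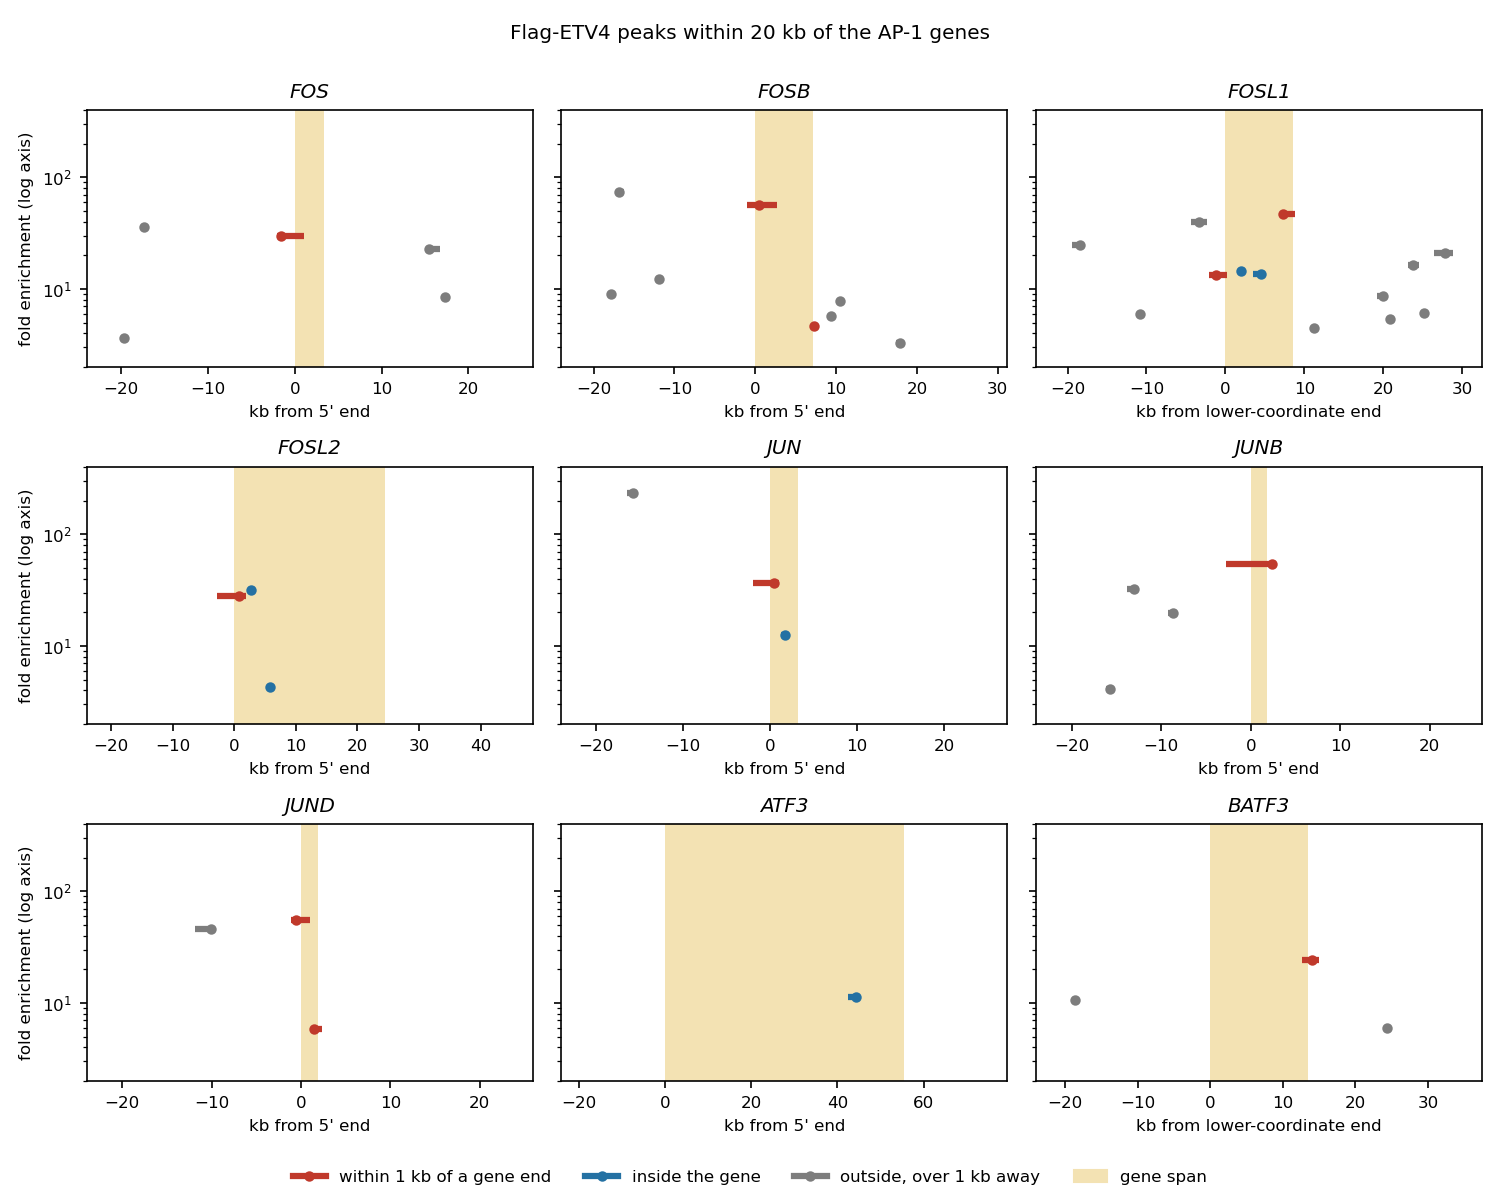
Flag-ETV4 peaks within 20 kb of the 9 AP-1 genes, with the distance from the 5′ end in kb (from the lower-coordinate end for FOSL1 and BATF3) on the horizontal axis and fold enrichment over the control on a logarithmic vertical axis. Lines are peak intervals, dots are summits and shading is the gene. The highest dot is the JUN peak 15.8 kb upstream, at a fold of 235, and ATF3 has a single peak, inside the gene.

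The gene-end peaks of the AP-1 genes were wide. At 8 of 9 genes a gene-end peak was 2 kb wide or more, against 7.28% of all protein-coding genes. At 3 kb or more the count was 4, against 1.24%. These widths, and the fold of 20 used below, were chosen after the data were seen, so the counts only describe the set. The lowest values of the 8 genes lay not far above 2 kb and 20, at 2131 bp for JUND and a fold of 24.1 for BATF3. Stronger gene-end peaks were wider in general. Among the 5528 protein-coding genes whose strongest gene-end peak had a fold over 20, 21.6% had a gene-end peak of 2 kb or more. All 8 AP-1 genes with a gene-end peak had a fold over 20. At FOSL1 the strong and the wide peak were not the same. The peak with a fold of 47.3 was 1786 bp wide. The peak of 2302 bp had a fold of 13.3 and its summit in the neighbouring gene CCDC85B. The strongest gene-end peak had a median width of 3038 bp over the 8 genes, against 1062 bp over all protein-coding genes with such a peak. Its median fold was 41.8 against 17.6, and its median pileup, the number of fragments over the summit, was 152 against 54. These widths were not over the AP-1 gene alone, since the widest peaks of FOSL1, FOSL2, JUN, JUNB and JUND each also reached an end of another RefSeq gene.

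**Figure D2:**
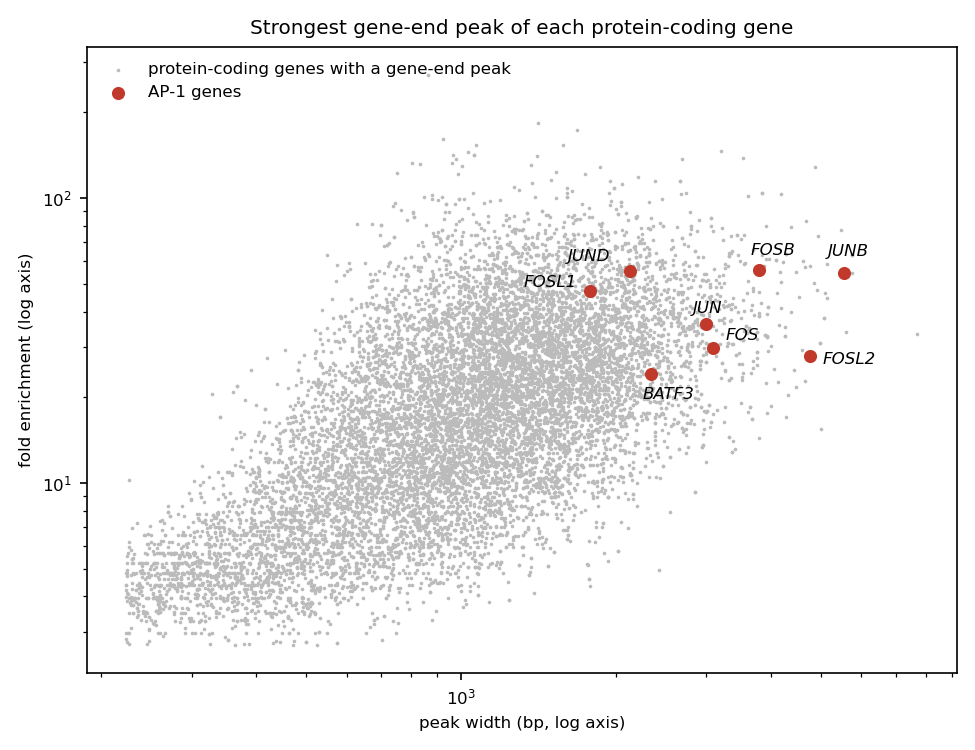
Width in bp and fold enrichment of the strongest gene-end peak of each protein-coding gene that has one (grey dots), with the 8 AP-1 genes in red, both on logarithmic axes. JUNB, FOSL2 and FOSB lie near the right edge, while their folds, 54.6, 27.9 and 56.0, lie within the grey cloud.

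JUNB, whose product often restrains JUN activity and which is itself an immediate early gene, had the widest peak of the set. The gene is only 1830 bp long (chr19:12791486-12793315), and a single peak of 5557 bp ran from 2744 bp before its start to 2812 bp after it. Only 9 peaks of the whole list were as wide or wider. The fold was 54.6 with a −log10 q of 290, and 201 fragments were stacked at the summit (174 to 231, where ranges after a fragment number are exact Poisson 95% confidence intervals). The summit lay 2323 bp after the start, which is 494 bp past the 3′ end. The list gives 1 summit for the whole interval, so separate maxima inside it cannot be compared. HOOK2, an overlapping gene that encodes a microtubule linker protein, has an end inside JUNB and so inside the same peak.

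FOSB, which encodes a FOS protein with a truncated splice form known from neurons, had the strongest gene-end peak by fold and by pileup. The peak (chr19:45466939-45470731, 3793 bp) had a fold of 56.0, a −log10 q of 373 and 263 fragments (232 to 297). Its summit was 428 bp after the start. A second, narrow peak of 320 bp lay at the 3′ end of FOSB, with a fold of 4.62 and 18 fragments (10.7 to 28.4), so the 3′ end carried far fewer fragments than the 5′ end.

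JUND, the JUN protein that many resting cells express, had a fold of 55.4 and 204 fragments (177 to 234) in a peak of 2131 bp over its 5′ end (chr19:18280625-18282755). The summit was 536 bp before the start, at a position inside the microRNA gene MIR3188 and the lncRNA gene LOC124904652. The MIR3188 hairpin is printed as the only sequence of the tables under this summit, at its base 82 of 85, and it holds no match to GGAA on either strand.
MIR3188 hairpin, chr19:18282077-18282161, plus strand: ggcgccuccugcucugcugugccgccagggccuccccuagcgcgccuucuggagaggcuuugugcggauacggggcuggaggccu
A weaker peak of 996 bp, with a fold of 5.80 and 15 fragments (8.40 to 24.7), covered the 3′ end of JUND.

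FOS, the prototype immediate early gene, had a peak of 3086 bp over its 5′ end (chr14:75276799-75279884) with a fold of 29.7 and 129 fragments (108 to 153). Its summit was 1636 bp before the start. JUN had a peak of 2990 bp (chr1:58782997-58785986) with a fold of 36.3 and 121 fragments (100 to 145), and a summit 390 bp after the start. This interval also reached JUN-DT, a lncRNA gene on the far side of the JUN start. A second JUN peak lay inside the gene, 1663 bp after the start, with a fold of 12.6 and 37 fragments (26.1 to 51.0).

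FOSL2, which encodes FRA-2, had the second widest peak of the set, 4767 bp (chr2:28390039-28394805), with a fold of 27.9 and 121 fragments (100 to 145). The summit was 750 bp after the start, and the interval contained an end of FOSL2-AS1, an antisense lncRNA gene. Only 331 bp further on, inside the gene, began a peak of 1035 bp with a fold of 31.8 and 91 fragments (73.3 to 112). The inner peak was the higher by fold and the lower by pileup. Their control levels, the background fragments at the summit implied by the peak caller's fold and p-value, were 1.90 and 3.38, and the pileup intervals overlapped. A further peak, 5797 bp after the start, had a fold of 4.30 and 12 fragments (6.20 to 21.0).

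FOSL1, which encodes FRA-1, a FOS protein induced by RAS and ERK signalling in many carcinomas, had peaks at both ends and in between. At the upper end (65900545 on chromosome 11) a peak of 1786 bp had a fold of 47.3 and 174 fragments (149 to 202), with its summit 1163 bp inside the gene. At the lower end (65892049) a peak of 2302 bp had a fold of 13.3 and 57 fragments (43.2 to 73.9). That peak overlapped FOSL1 only at its lower end and covered the whole of CCDC85B, in which its summit lay. Between the ends, 2 peaks had folds of 14.6 and 13.6, with 50 and 54 fragments. The pileup interval of the upper-end peak lay above those of the other 3.

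BATF3, which is needed for the development of cross-presenting dendritic cells, had the weakest gene-end peak of the 8. The peak of 2344 bp lay at its upper end (chr1:212699016-212701359), with a fold of 24.1, 54 fragments (40.6 to 70.5) and a summit 617 bp beyond the gene. The control level there was 1.28, the lowest value of the list. ATF3, a stress-response gene on the same chromosome at a distance of 65.6 kb from BATF3, had 1 peak. It spanned 1933 bp (chr1:212607940-212609872), with a fold of 11.4, a −log10 q of 22.5 and 26 fragments (17.0 to 38.1). The promoter table lists ATF3 starts at 212565407 and 212615018, and the summit lay 44.2 kb after the first and 5.37 kb before the second. RefSeq holds 9 transcripts of ATF3, and the starts of those outside the table were not used here. Whether the peak covers 1 of those starts is therefore not known.

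By pileup, the strongest gene-end peaks ran from FOSB (263 fragments) through JUND (204), JUNB (201), FOSL1 (174), FOS (129), JUN (121) and FOSL2 (121) to BATF3 (54). The intervals of neighbours in this order overlapped, except that BATF3 lay below all others. Ranked by fold among the protein-coding genes with a gene-end peak, FOSB, JUND and JUNB were at the 94.6th, 94.4th and 94.2nd percentile. FOSL1 was at the 90.7th, JUN at the 82.0th, FOS at the 73.9th, FOSL2 at the 71.1st and BATF3 at the 64.7th.

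**Figure D3:**
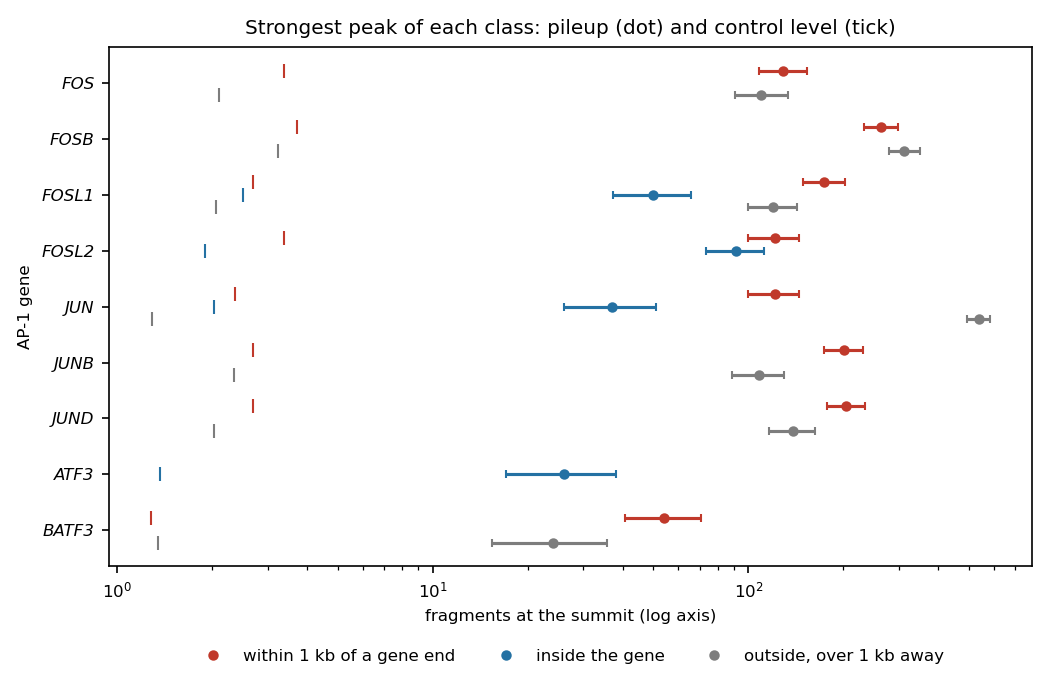
Fragments at the summit of the strongest peak by fold of each class at each AP-1 gene, on a logarithmic axis, with exact Poisson 95% confidence intervals (counting error only) as bars and the control level as a tick. At JUN the outside peak, with 536 fragments, exceeds the gene-end peak, with 121, and no bar of one reaches the other.

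Of the 8 AP-1 promoter windows, 6 lay wholly inside a peak, against 37.7% of all windows of protein-coding genes. All 6 covering peaks were 2 kb wide or more, a limit chosen after the data were seen. Over protein-coding genes, 1485 of the 8319 windows wholly inside a peak lay in one that wide. None of the 6 covered AP-1 windows held a summit, against 17.9% of those 1485 windows and 18.4% of all windows. With 6 windows, the count does not stand apart from the background. The summits were before the start at FOS and JUND and after it at FOSB, FOSL2, JUN and JUNB. At the 3′ ends, FOSB, JUNB and JUND had a peak within 1 kb, which is 3 of 7 genes, against 9.56% of all protein-coding genes with a strand. JUNB and JUND are so short that both ends lie close together. Among genes under 10 kb the count was 3 of 5, against 16.8%.

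**Figure D4:**
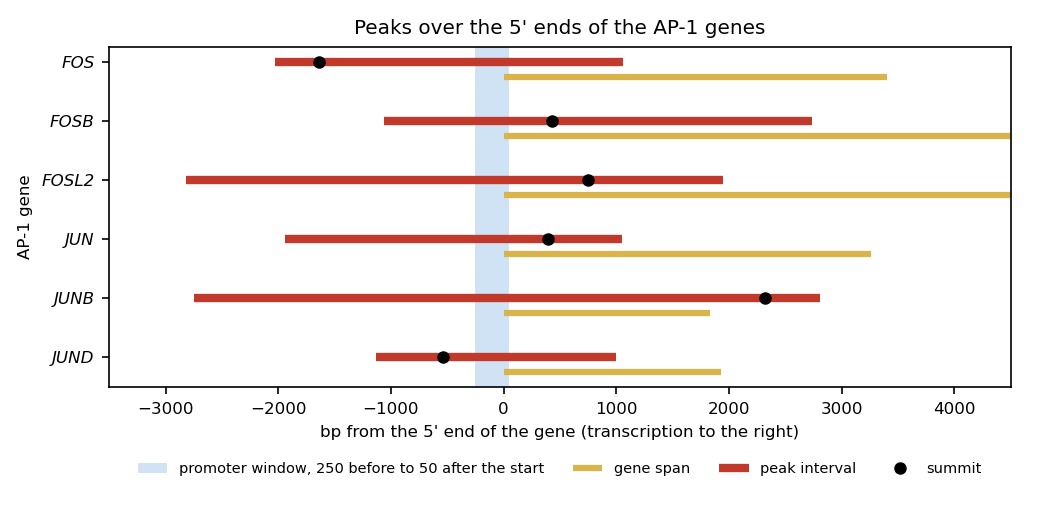
Peak intervals (red) and summits (black) over the 5′ ends of the 6 AP-1 genes that have one, in bp from the start with transcription to the right, with the gene span in ochre and the promoter window shaded. No summit falls in the shaded window, and the JUNB interval extends past both ends of the gene.

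The outside peaks included the strongest of the set. Upstream of JUN, a peak at chr1:58799298-58800496 had a fold of 235, rank 6 of the 54389 peaks, with a −log10 q of 1170. Its pileup was 536 fragments (492 to 583), which ranked 54th, and its control level was 1.29, close to the lowest of the list. The summit was 15.8 kb before the start of JUN, inside JUN-DT, and no end of a RefSeq gene lay within 13.9 kb of the interval. The pileup interval lay above that of every other peak of the 9 loci.

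At FOS, a peak 17.4 kb upstream (chr14:75261103-75261746) had a fold of 35.8 and 110 fragments (90.4 to 133), an interval that overlapped that of the peak over the FOS start. The nearest gene end was 8929 bp away, that of a pseudogene. Downstream of FOS, a peak of 1640 bp over the start of the lncRNA gene LINC01220 had a fold of 22.9 and 81 fragments (64.3 to 101), with its summit 12.1 kb beyond the gene. At JUND, a peak 10.1 kb upstream had a fold of 45.9 and 138 fragments (116 to 163), over an end of the lncRNA gene LOC124904653. The 2 outside peaks of BATF3 had folds of 10.6 and 5.95. FOSL2 and ATF3 had no outside peak. Over the genes with a strand, the 10 upstream peaks had a median fold of 26.1, and 7 of them a fold over 10. The 5 downstream peaks had a median fold of 7.81, and 1 of them a fold over 10, the one at LINC01220. The downstream peaks were all at FOS and FOSB, and some upstream peaks, such as that of JUND, lay at ends of other genes. The same split was not made over all genes, so no preference for a side can be read from these values.

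Several outside peaks belonged to neighbouring genes by position. Of the 26, 8 lay within 1 kb of an end of another protein-coding gene and 12 within 1 kb of an end of any other RefSeq gene. A further 2, both near JUNB, covered starts that the promoter table lists inside HOOK2. This left 12 outside peaks away from all of these, of which 5 had a fold over 10. The matching shares over the outside peaks of all protein-coding genes were not taken, so whether these counts are usual is not known. At FOSB the strongest outside peak, with a fold of 73.8 and 312 fragments (278 to 349), covered an end of ERCC1, a nucleotide excision repair gene. Its pileup interval overlapped that of the FOSB 5′ peak. At FOSL1, which had 13 peaks within 20 kb and stood at the 98.6th percentile of all protein-coding genes in that count (the median gene had 2), 9 peaks lay outside the gene. Of these, 5 were within 1 kb of an end of EFEMP2, FIBP or C11orf68, and the highest fold, 39.7 with 120 fragments (99.5 to 143), was at the end of FIBP.

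At JUNB all 3 outside peaks were upstream, inside HOOK2. The strongest (chr19:12777618-12778759) had a fold of 32.5 and 108 fragments (88.6 to 130), and its summit fell in a HOOK2 promoter window. It is 1 of 4 promoter windows under the summits of outside peaks, and is printed because it belongs to the strongest outside peak of JUNB and has the CCGGAAG matches nearest to a summit, so it was picked after the matches were seen. Capitals mark GGAA and CCGGAAG on either strand.
HOOK2, chr19:12778384-12778683, minus strand: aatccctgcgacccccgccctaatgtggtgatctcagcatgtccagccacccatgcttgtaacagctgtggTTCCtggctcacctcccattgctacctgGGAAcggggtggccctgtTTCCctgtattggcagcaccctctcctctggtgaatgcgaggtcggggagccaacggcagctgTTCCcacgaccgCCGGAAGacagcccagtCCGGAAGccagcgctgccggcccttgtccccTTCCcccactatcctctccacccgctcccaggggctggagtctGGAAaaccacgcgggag
It held 8 matches to GGAA and 2 to CCGGAAG. The summit fell within 1 of the CCGGAAG matches and 13 bp from the other. The other windows differed from it. In the FIBP window near FOSL1, with 5 matches to GGAA, the 2 matches to CCGGAAG lay 115 and 168 bp from the summit. The LINC01220 window near FOS held no CCGGAAG and 3 matches to GGAA, the nearest 14 bp from the summit. The window of the other HOOK2 start, under the JUNB peak with a fold of 4.16, held no CCGGAAG and 1 match to GGAA, 97 bp from the summit. Over all 22076 promoter windows, CCGGAAG was found in 32.3% of the 4065 windows that held a summit and in 8.37% of the 18011 that did not, shares that were not matched for base composition. The other JUNB outside peaks had folds of 19.6 and 4.16.

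Other genes of the AP-1 pathway were read from fixed lists. Among 19 further bZIP genes that can pair with or resemble AP-1 proteins, 16 had a gene-end peak, with a median fold of 23.7 at the strongest one, against 62.1% and 17.6 over all protein-coding genes. The highest were MAFG, a small MAF partner (fold 77.2, 191 fragments), and CREB1, which binds cyclic AMP response elements (fold 53.8, 139 fragments). BATF2 and CREB5 were among those with none. Of 16 kinases and ternary complex factors upstream of AP-1, 14 had one, with a median fold of 17.0. The highest were the JNK kinase MAP2K4 (fold 95.1, 237 fragments) and the TGF-beta-activated kinase gene MAP3K7 (fold 53.7, 234 fragments), while MAP2K2 and MAPK3 had none. Of 16 well-known AP-1 target genes, 10 had one, with a median fold of 17.8. PLAUR, the urokinase receptor gene, had the highest (fold 86.3, 464 fragments), followed by VEGFA, an angiogenic growth factor gene (fold 43.8, 176 fragments). CXCL8, IL6, MMP1, MMP3, MMP13 and SPP1 had none. Gene-end peaks of 2 kb or more were found at 2 of 19, 3 of 16 and 2 of 16 genes of these lists, against 7.28% of all protein-coding genes and 21.6% of those with a gene-end fold over 20.

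Control levels at the 43 peaks lay between 1.28 and 5.40 (median 2.36), while over all peaks the median was 1.67. At the gene-end peaks they were above that median except at BATF3. Pileups of the 43 peaks had a median of 54 fragments, against 26 in the whole list, and spanned 12 to 536.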

How the data were processed

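Chromatin of 1 sample was immunoprecipitated with anti-Flag and compared with 1 input. The authors deposited 1 peak list, called on the single library, with no replicates pooled. The deposited values, computed by the authors against the input, are for each peak the fold enrichment as a ratio, the −log10 p-value, the −log10 q-value (at least 1.30) and a score, which was not used. The submitters' processing notes name Bowtie2 2.4.1, SAMtools, MACS2 2.2.7.1, deepTools 3.5.0 and hg38, and parameters were not given in the sources used here. Positions are 1-based.

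Pileup and control level were solved from fold, with a pseudocount of 1, and Poisson p. The solved pileups lay within 0.00914 of whole numbers, and 100% of 19938 simulated pileups were recovered. Gene ends are the outer bounds in RefSeq, strand and starts come from its promoter table (15842 of 20033 protein-coding genes), and peaks were assigned by interval. The window code gave 0 differences from a direct search on 300 genes with simulated peaks. Percentiles are the share of genes with a lower value. Intervals are 95% and cover counting error only. No test was run. The 9 genes and all lists were chosen with earlier results of these data known, and so were all widths and fold limits used for counts. All 9 genes are named, with neighbours that share their peaks, and of each further list the 2 highest and those without a gene-end peak, except that 1 gene and 1 promoter sequence are not reported here. Scripts ran in Python 3.11.15 with scipy 1.17.1, pandas 2.3.3, numpy 2.4.6 and, for plots, matplotlib 3.10.9.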

Additional observations from a re-analysis of the deposited data

How the results depend on the processing

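The count of AP-1 genes with a gene-end peak was 8 under gene-end windows of 500 bp, 2 kb and 3 kb, a fold over 5 or 10 and a −log10 q over 10. It was 6 when the summit had to lie within 1 kb (FOS and FOSL1 dropped out) and 6 when only 5′ ends of genes with a strand were counted. The count with an outside peak was 7 under each of 5 alternatives. The number of peaks fell to 23 within 10 kb, rose to 79 within 50 kb and was 27 with a fold over 10. The share of protein-coding genes with a gene-end peak was 59.2%, 65.7% and 68.4% with windows of 500 bp, 2 kb and 3 kb. The median percentile of the AP-1 gene-end peaks was 86.3 by fold, 89.3 by pileup and 87.9 by −log10 q. The count of genes with a gene-end peak of 2 kb or more, a limit chosen after the data were seen, was 8 at 1.5 kb and 4 at 3 kb. Peaks of 12 to 20 fragments have wide counting intervals, and 1 library gives no measure of the variation between cultures.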
